A study of Mus musculus with 6 samples.

Results

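The HCN pacemaker channels described here are the genes Hcn2, Hcn3 and Hcn4, chosen by gene name, which are 3 of the 17022 gene names in the deposited isoform table and hold 9 of its 60744 isoforms. The remaining gene of the family was not analysed here. Dorsal root ganglia hold the cell bodies of sensory neurons. Neurons were isolated with a laser from the ganglia of lumbar levels 3, 4 and 5 on the operated side, and their RNA was sequenced. In the crush group (3 libraries) the sciatic nerve was crushed for 10 seconds, and in the sham group (3 libraries) the nerve was exposed for 10 seconds and not crushed. All mice were C57Bl/6 males, aged 4 to 6 weeks by one label and adult by another, and ganglia of both groups were taken 7 days after surgery. The labels name no transgene or drug. The sources used here do not say how many animals or neurons went into a library, so p-values measure the spread between these libraries, which may in part be technical.

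HCN channels are cation channels of the plasma membrane that open when the cell is hyperpolarised, the reverse of most voltage-gated channels. The inward current they carry, called Ih, drives the membrane back towards threshold, and cyclic AMP that binds to the intracellular end of the channel makes opening easier. In sensory ganglia Ih helps to set the resting potential and repetitive firing. Of the subunits, HCN2 is strongly modulated by cyclic AMP and in mice has been tied to firing of nociceptors and to inflammatory and neuropathic pain. HCN3 responds little to cyclic AMP, and HCN4 is best known as the main pacemaker subunit of the sinoatrial node of the heart.

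The part of the coding sequence that lines the pore and the part that holds cyclic AMP are shared by the 3 genes, and they are printed to show how alike the members are where reads must be assigned among them. The sequences are from GENCODE M21 transcripts (GRCm38), on the coding strand. Capitals in the first stretch mark the glycine-tyrosine-glycine codons of the selectivity filter, at coding bases 1174 to 1233 of Hcn2, 904 to 963 of Hcn3 and 1408 to 1467 of Hcn4, within exon 4.
Hcn2: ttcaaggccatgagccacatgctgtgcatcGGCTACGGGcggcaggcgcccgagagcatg
Hcn3: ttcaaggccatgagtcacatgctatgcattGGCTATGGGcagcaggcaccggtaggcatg
Hcn4: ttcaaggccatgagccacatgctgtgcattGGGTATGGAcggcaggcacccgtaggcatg

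Capitals in the second stretch mark the arginine-threonine codons of the cassette that holds the phosphate of the cyclic nucleotide. It lies at coding bases 1732 to 1797 of Hcn2, 1462 to 1527 of Hcn3 and 1966 to 2031 of Hcn4, beginning in exon 6, with the marked codons in exon 7.
Hcn2: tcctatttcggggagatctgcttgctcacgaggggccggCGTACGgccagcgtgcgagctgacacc
Hcn3: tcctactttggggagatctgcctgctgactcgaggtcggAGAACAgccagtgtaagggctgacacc
Hcn4: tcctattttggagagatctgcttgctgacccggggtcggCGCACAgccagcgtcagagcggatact

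The filter stretch (60 bases) differed at 10 positions between Hcn2 and Hcn3, at 8 between Hcn2 and Hcn4 and at 6 between Hcn3 and Hcn4. The cassette stretch (66 bases) differed at 15, 13 and 13 positions in the same pairs. Over exons 3 to 7 as a whole (934 bases, of equal exon lengths in the 3 genes) identity was 78.9% for Hcn2 and Hcn3, 83.4% for Hcn2 and Hcn4 and 81.8% for Hcn3 and Hcn4. The longest run of bases shared by the whole transcripts, at any position in each, was 33, 32 and 32 bases in those pairs. The read length is not given in the sources used here, so how many reads could match more than 1 member was not tested.

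Among the libraries sham 2 stood apart. Pairs of crush libraries had correlations across genes of 0.993 to 0.996. Sham 1 and sham 3 were correlated at 0.996, and sham 2 with them at 0.978 and 0.981. Results for the HCN genes and the pathway lists are therefore given with sham 2. They are also given without it where it changes which genes pass or the sign of an HCN gene or isoform. Cell type markers and genes of like pattern are given only with sham 2.

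After crush the Hcn2 transcript was lower, and Hcn3 and Hcn4 did not pass the test. Levels are FPKM (fragments scaled to the length of the transcript and to the mapped fragments of the library), summed over the isoforms of a gene, and were compared per length. Hcn2 totals were 28.83, 27.62 and 31.58 FPKM in crush libraries 1 to 3, against 47.66, 50.04 and 43.74 FPKM in sham libraries 1 to 3. The groups did not overlap, and the highest crush library lay below the lowest sham library, as was so for 14.1% of the 12289 genes tested (26.3% did not overlap in either direction). Mean Hcn2 levels were 29.3 ± 2.03 FPKM after crush and 47.2 ± 3.18 FPKM after sham surgery (SD, n = 3 each), so the crush level was 62.2% of the sham level. The log2 change was -0.67 (SE 0.081, 95% interval -0.86 to -0.47), with an adjusted p of 0.0123 by limma with Benjamini-Hochberg adjustment over 12289 genes. In that comparison 3.78% of genes passed in either direction, 2.38% upwards and 1.39% downwards. The Hcn2 change was the 69th lowest of the 12289. With these bulk samples, fewer cells of a type and less RNA per cell cannot be told apart.

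The Hcn2 call depended on which libraries were in the fit. The adjusted p by limma was 0.0517 without sham 1, 0.0761 without crush 1 and 0.0616 without crush 2, while the log2 change stayed between -0.72 and -0.62 whichever library was left out. Without sham 2 the Hcn2 log2 change was -0.62, with an adjusted p of 0.00533 by limma, within a range of 0.00108 to 0.0883 over all alternatives.

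Hcn3, the subunit that responds little to cyclic AMP, had totals of 9.727, 10.47 and 9.399 FPKM in crush libraries 1 to 3, against 9.571, 8.876 and 8.437 FPKM in sham libraries 1 to 3. The groups overlapped, with the lowest crush library between the sham libraries. Means were 9.87 ± 0.549 FPKM after crush and 8.96 ± 0.572 FPKM after sham surgery (SD, n = 3 each). The log2 change was 0.13 (95% interval -0.05 to 0.30), with an adjusted p of 0.455 by limma, and the interval does not include the log2 change of Hcn2.

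Hcn4, the sinoatrial subunit, had totals of 3.957, 3.683 and 3.216 FPKM in crush libraries 1 to 3, against 3.656, 3.208 and 3.913 FPKM in sham libraries 1 to 3. The ranges of the groups almost coincided. Means were 3.62 ± 0.375 FPKM after crush and 3.59 ± 0.357 FPKM after sham surgery (SD, n = 3 each). The log2 change was 0.01 (95% interval -0.22 to 0.24), with an adjusted p of 0.980 by limma. Its sign turned in 5 of the alternative fits, from -0.05 to 0.07 in all. The fit without sham 2 was 1 of these, at -0.054.

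**Figure D1:**
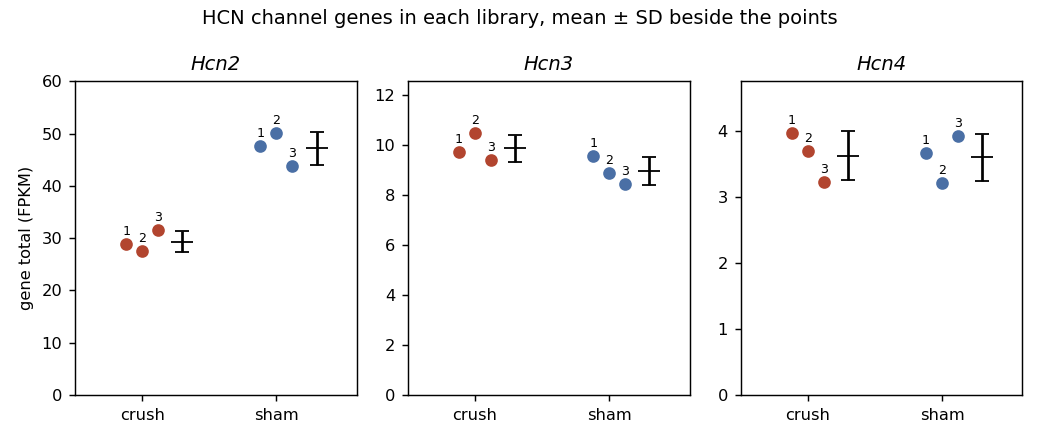
Gene totals in FPKM (vertical axis, from 0, a separate scale for each gene) of Hcn2, Hcn3 and Hcn4 in crush and sham libraries, numbered by replicate, with mean and SD beside the points. The crush libraries of Hcn2 lie at 27.6 to 31.6 FPKM, below the sham libraries at 43.74 to 50.04 FPKM, and the groups overlap for Hcn3 and Hcn4.

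In each of the 6 libraries the order of the levels was Hcn2, Hcn3, Hcn4, and neighbours in that order did not overlap. The lowest Hcn2 value of any library, 27.6 FPKM, lay above the highest Hcn3 value, 10.5 FPKM, and the lowest Hcn3 value, 8.44 FPKM, lay above the highest Hcn4 value, 3.96 FPKM. By mean level over the 6 libraries Hcn2 stood at the 85.0th percentile of the 12289 tested genes, Hcn3 at the 52.2nd and Hcn4 at the 26.0th. All 3 genes passed the filter of a mean of 1 FPKM.

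Hcn2 held a smaller part of the summed level of the members in each crush library than in any sham library. The 3 members summed to 42.51, 41.77 and 44.20 FPKM in crush libraries 1 to 3, against 60.89, 62.12 and 56.09 FPKM in sham libraries 1 to 3. Hcn2 held 67.8%, 66.1% and 71.5% of that sum in crush libraries 1 to 3, against 78.3%, 80.6% and 78.0% in sham libraries 1 to 3. Mean Hcn2 shares were 68.5 ± 2.73% after crush and 78.9 ± 1.41% after sham surgery (SD, n = 3 each), and the groups did not overlap.

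Hcn3 held 23.1 ± 1.91% of the sum after crush and 15.02 ± 0.716% after sham surgery, and Hcn4 held 8.47 ± 1.06% after crush and 6.05 ± 0.908% after sham surgery (SD, n = 3 each). The ratio of Hcn2 to Hcn3 was 2.96, 2.64 and 3.36 in crush libraries 1 to 3, against 4.98, 5.64 and 5.19 in sham libraries 1 to 3. The ratio of Hcn2 to Hcn4 was 8.20 ± 1.41 after crush and 13.3 ± 2.22 after sham surgery, also without overlap. The ratio of Hcn3 to Hcn4 overlapped between groups, at 2.74 ± 0.249 after crush and 2.51 ± 0.319 after sham surgery (SD, n = 3 each). These 7 quantities (the sum, 3 shares and 3 ratios) are not independent of each other. In the 2-sided exact permutation test over libraries, 6 of them gave p = 0.1, the smallest that 3 against 3 allows, and the ratio of Hcn3 to Hcn4 gave p = 0.5 (0.117 and 0.5 after Benjamini-Hochberg adjustment over the 7). So none could pass 0.05 in this design, and the test cannot decide whether Hcn2 moved differently from Hcn3 or Hcn4.

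Most of the assembled isoforms start downstream of the reference isoform of their gene. In the authors' coordinates (mm9) Hcn2 lies on the plus strand at chr10:79179490-79198841, Hcn3 on the minus strand at chr3:88950749-88964146 and Hcn4 on the plus strand at chr9:58670686-58711030. Each gene has 1 isoform with a reference identifier, of 8 exons, with spliced lengths of 3072 bases for Hcn2, 3277 bases for Hcn3 and 6699 bases for Hcn4. Exons 3 to 7 of these isoforms have the same lengths in all 3 genes, at 162, 219, 147, 241 and 165 bases.

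The other 6 isoforms were assembled by the authors' pipeline and carry the gene's name with a number. Hcn2_j1 starts 0.579 kb downstream of the reference start with a first exon of 78 bases. Hcn2_j2 starts 12.04 kb downstream with a first exon of 24 bases and keeps exons 4 to 7, so it carries the filter and cassette stretches printed above but lacks the first 3 exons. Hcn3_j3 starts 9.03 kb downstream, with exon 4 lengthened to 333 bases, and Hcn4_j1 starts 14.33 kb downstream with a first exon of 64 bases and exons 2 to 7 of the reference. Hcn3_j1 has 3 exons and starts 11.094 kb downstream, and Hcn3_j2 has the reference start with exon 2 of 319 bases. Whether these starts are used in the neurons was not tested, since no reads or start-site data were used here.

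**Figure D2:**
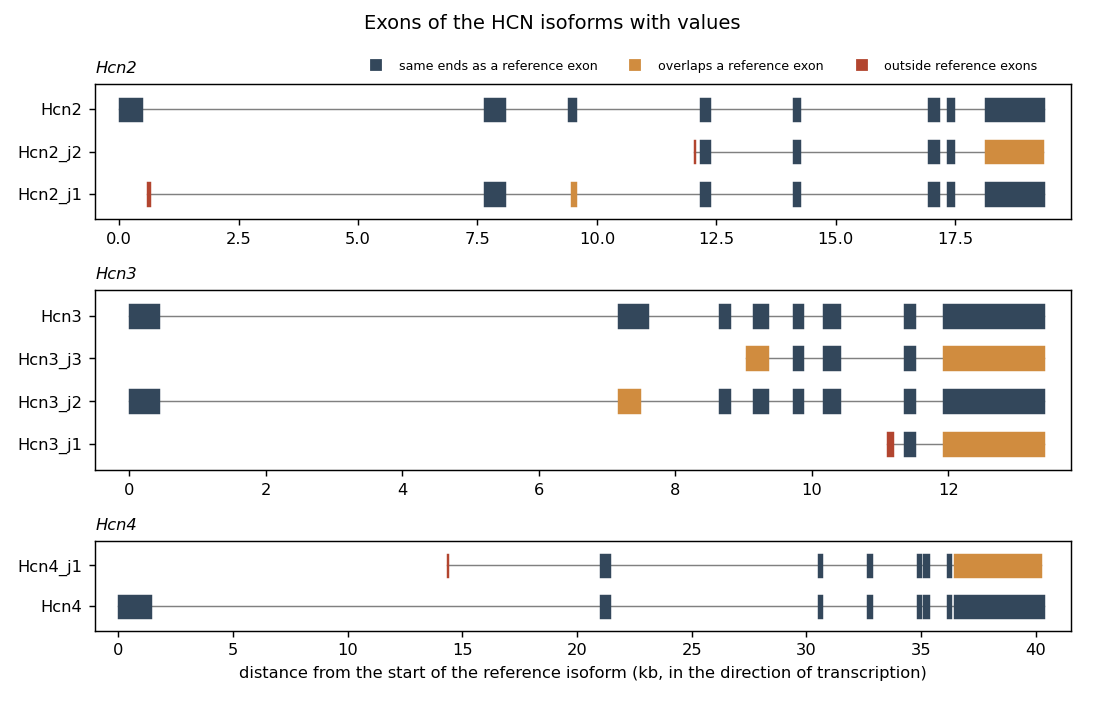
Exons (boxes) and introns (lines) of the 9 isoforms with values, drawn to scale by distance in kb from the start of the reference isoform in the direction of transcription, each gene on its own scale. Box colour marks exons with the same ends as a reference exon, exons that overlap one, and exons outside the reference exons, such as the short first exon of Hcn4_j1 at 14.33 kb.

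Of the 9 isoforms, 7 had a mean of at least 1 FPKM and were tested, and none passed. The reference isoform of Hcn2 had 25.99, 24.04 and 28.09 FPKM in crush libraries 1 to 3, against 38.82, 46.60 and 43.74 FPKM in sham libraries 1 to 3. The groups did not overlap. Its log2 change was -0.70 (SE 0.105, 95% interval -0.96 to -0.45), with an unadjusted p of 0.000552 and an adjusted p of 0.111 by limma over 24485 isoforms. Only 0.0613% of isoforms passed in that fit (15), 0.00817% passed downwards, and 9.12% had an unadjusted p under 0.05. With sample weights the adjusted p of the Hcn2 reference isoform was 0.00833 by limma, within a range of 0.00833 to 0.604 over all alternatives.

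The authors' deposited intervals give the precision of single values. For the Hcn2 reference isoform they ran from 19.98 to 32.00, 18.37 to 29.70 and 21.55 to 34.63 FPKM in crush libraries 1 to 3, and from 30.04 to 47.59, 36.11 to 57.10 and 33.92 to 53.56 FPKM in sham libraries 1 to 3. Single crush and sham intervals thus overlapped for some pairs of libraries, such as crush 3 and sham 1. The intervals reached 22.4% to 23.6% of the value to either side for the Hcn2 reference isoform, 26.6% to 27.8% for that of Hcn3 and 29.5% to 31.1% for that of Hcn4.

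The 2 assembled isoforms of Hcn2 were low and uneven in the single libraries. Hcn2_j1 had 2.621, 1.064 and 1.027 FPKM in crush libraries 1 to 3, against 1.388, 3.437 and 0.001957 FPKM in sham libraries 1 to 3. Hcn2_j2 had 0.2143, 2.517 and 2.471 FPKM in crush libraries 1 to 3, against 7.457 FPKM in sham 1, and was listed at 0 in sham 2 and sham 3. Neither had a direction that its replicates share, and both overlapped between groups.

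In Hcn3 the reference isoform had 6.723, 7.076 and 6.416 FPKM in crush libraries 1 to 3, against 6.842, 5.730 and 5.526 FPKM in sham libraries 1 to 3 (log2 change 0.14, adjusted p 0.800 by limma). Hcn3_j3 had 2.670, 3.203 and 2.984 FPKM in crush libraries 1 to 3, against 2.369, 3.051 and 2.384 FPKM in sham libraries 1 to 3 (log2 change 0.14, adjusted p 0.842 by limma). Both overlapped between groups. Hcn3_j1 and Hcn3_j2, with means of 0.0425 and 0.209 FPKM over the 6 libraries, were below the filter and were not tested.

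In Hcn4 the reference isoform had 1.632, 1.750 and 1.623 FPKM in crush libraries 1 to 3, against 1.876, 1.670 and 1.753 FPKM in sham libraries 1 to 3 (log2 change -0.05, adjusted p 0.936 by limma). Hcn4_j1 had 2.326, 1.932 and 1.593 FPKM in crush libraries 1 to 3, against 1.780, 1.538 and 2.160 FPKM in sham libraries 1 to 3 (log2 change 0.06, adjusted p 0.946 by limma). The 2 isoforms were of like level, and both overlapped between groups.

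As shares of the gene's FPKM, all 9 isoforms overlapped between groups. The reference isoform held 88.7 ± 1.58% of Hcn2 after crush and 91.5 ± 9.38% after sham surgery, where the single values were 81.4% in sham 1, 93.1% in sham 2 and nearly the whole in sham 3. It held 68.3 ± 0.768% of Hcn3 after crush and 67.2 ± 3.76% after sham surgery, and 46.4 ± 4.72% of Hcn4 after crush and 49.4 ± 3.99% after sham surgery (SD, n = 3 each). In limma's diffSplice test of differences between the isoforms of a gene, where 0.519% of 6746 genes passed, the unadjusted p was 0.581 for Hcn2, 0.977 for Hcn3 and 0.500 for Hcn4.

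**Figure D3:**
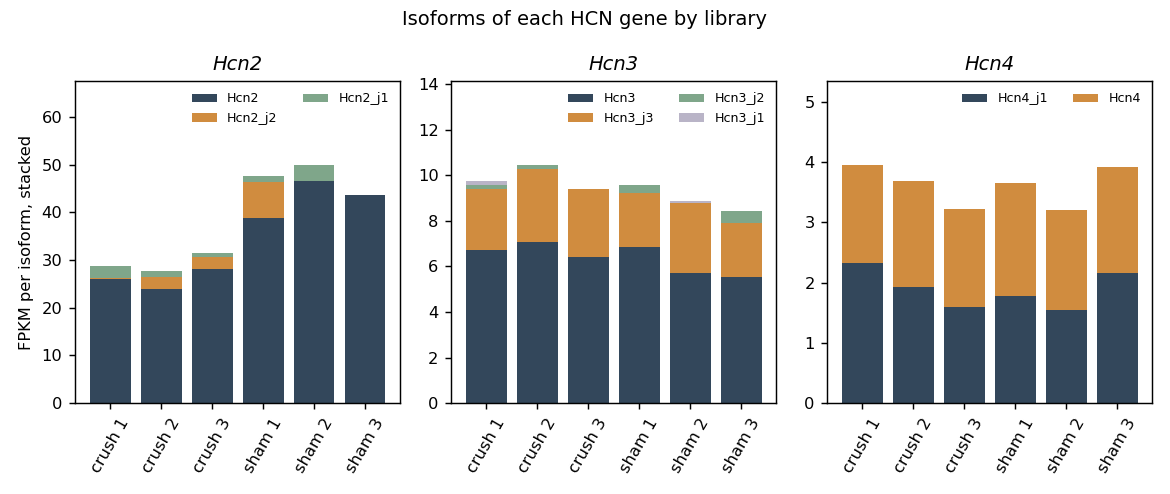
Stacked FPKM of the isoforms (vertical axis, from 0, a separate scale for each gene) in crush libraries 1 to 3 and sham libraries 1 to 3. The reference isoform makes up at least 81.4% of Hcn2 in each library, while the 2 isoforms of Hcn4 are of like level.

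The authors' deposited table holds their own comparison of pooled group estimates. In the authors' deposited table the Hcn2 reference isoform had 23.1 FPKM for crush and 36.6 FPKM for sham, a log2 fold change of -0.67 and a q-value of 2.12e-10. In the authors' deposited table Hcn2_j1 and Hcn2_j2 had log2 fold changes of -0.27 and -0.31, with q-values of 0.728 and 0.271. Their limma log2 changes had the other sign, at 0.17 and 0.27, and did not pass. Pooled Hcn2_j2 estimates were 6.96 FPKM for crush and 8.63 FPKM for sham, above its means over single libraries of 1.73 and 2.49 FPKM. The pooled and single-library values thus split Hcn2 differently among its isoforms, and the reason was not tested. Among isoforms whose test the authors' deposited table marks as OK, 15.1% had a q-value under 0.05, and 6.84% had one with a fall after crush. All 6 isoforms of Hcn3 and Hcn4 are marked there as failed tests, with a log2 fold change written as 0 and a p-value as 1, and such values are no measurement of a change. The same mark stands on 45.1% of all isoforms in the authors' deposited table.

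The Hcn2 value has a limit of position. The library preparation is not stated to keep strand, and 38.9% of the exon bases of Hcn2 (1234 of 3174) lie over exons of Polrmt, the mitochondrial RNA polymerase gene, on the other strand, at the last exon of Hcn2. Polrmt had 6.022, 6.037 and 6.767 FPKM in crush libraries 1 to 3, against 6.529, 7.573 and 6.565 FPKM in sham libraries 1 to 3. Its groups overlapped, and its log2 change was -0.12, with an adjusted p of 0.550 by limma. How the authors' pipeline split the shared bases was not tested. Hcn4 shares 4.6% of its exon bases with 2410076I21Rik on the other strand, at 1.33 ± 0.105 FPKM after crush and 1.53 ± 0.0900 FPKM after sham surgery (SD, n = 3 each), and Hcn3 shares none.

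Markers of the cell types in or around the ganglion were measured beside the channels. Of 10 markers of large myelinated neurons, 6 fell, none rose and 4 did not pass, beside 1.39% of all genes tested that fell. Their median log2 change was -0.60, beside -0.015 for all genes tested. Their summed level was 1275 to 1580 FPKM in crush libraries, against 2128 to 2226 FPKM in sham libraries, and the most abundant, the neurofilament gene Nefm, was at 923 ± 93.5 FPKM after crush and 1345 ± 35.5 FPKM after sham surgery (SD, n = 3 each). These 6 markers fell, as did Hcn2, while 1 of the other markers, Spp1, was on the higher side at 63.1 ± 26.3 FPKM after crush and 49.7 ± 14.1 FPKM after sham surgery (SD, n = 3 each). The part of these cells in the Hcn2 result was not tested. The 7 general neuronal markers, led by the tubulin gene Tubb3, neither rose nor fell by the test and summed to 6211 to 7288 FPKM in crush libraries, against 5473 to 7423 FPKM in sham libraries.

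Of 5 peptidergic nociceptor markers 1 rose, Adcyap1 (log2 change 0.81, adjusted p 0.0248 by limma). The most abundant, Calca, did not pass, at 1144 ± 70.1 FPKM after crush and 1233 ± 186 FPKM after sham surgery. Of 6 non-peptidergic markers 1 fell, Lpar3 (log2 change -0.33, adjusted p 0.0369 by limma). The most abundant, P2rx3, was higher but did not pass, at 128 ± 4.92 FPKM after crush and 106 ± 4.87 FPKM after sham surgery (SD, n = 3 each). P2rx3 was the only 1 of the 6 with a log2 change above 0. The other 5 were below 0, and the median of the list was -0.28. None of the 3 markers of cold-sensing and low-threshold C neurons passed, with Th at 29.3 ± 1.88 FPKM after crush and 37.4 ± 8.91 FPKM after sham surgery. Of 8 macrophage markers 6 were tested and 5 rose, beside 2.38% of all genes tested; the list, led by the complement gene C1qa, summed to 92.1 to 101.8 FPKM in crush libraries, against 39.3 to 50.4 FPKM in sham libraries, with none of the 7 that have values at 0 in any library. None of 10 markers of satellite glia and Schwann cells, led by Apoe, passed, and they summed to 3121 to 3422 FPKM in crush libraries, against 3029 to 4194 FPKM in sham libraries. None of 7 fibroblast and vessel markers, led by Dcn, passed, but their sums of 183.5 to 194.5 FPKM in crush libraries, against 121.6 to 160.0 FPKM in sham libraries, did not overlap. Of the exon bases of 3 of these markers, 64.2% in Calca, 75.8% in Apoe and 17.5% in P2rx3 lie over another gene. Transcripts used as markers of glia and macrophages were thus present in the dissected material. Which cells they came from, and the part of glia and macrophages in the HCN values, was not tested. Markers of cardiac and skeletal muscle summed to 0.825 to 1.73 FPKM in crush libraries, against 0.695 to 1.51 FPKM in sham libraries, with values for 2 of 6, Acta1 and Ckm.

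Genes of the pathways around the channels were counted in 6 lists, beside 3.78% of all 12289 genes that passed (2.38% upwards and 1.39% downwards). Without sham 2 far more of the 12289 passed, 1174 (607 upwards and 567 downwards) against 464 with it. List counts without sham 2 are to be read beside that larger number. Of 12 tested genes (16 listed) for proteins that bind or modify HCN channels, none passed, with 6 log2 changes above 0 and 6 below. The smallest adjusted p was that of Mapk14, a stress-activated kinase reported to shift HCN opening in rodent neurons, at 25.75, 25.41 and 27.04 FPKM in crush libraries 1 to 3, against 21.16, 21.50 and 20.78 FPKM in sham libraries 1 to 3 (log2 change 0.29, adjusted p 0.0504 by limma). Its groups did not overlap. Without sham 2, 4 of the 12 passed: Mapk14, the scaffold gene Flna, the adaptor gene Apba2 and Pex5l. Pex5l encodes TRIP8b, the auxiliary subunit that steers HCN traffic, and was chosen for description after its values were seen. It had 19.34, 18.89 and 16.86 FPKM in crush libraries 1 to 3, against 23.75, 20.59 and 23.20 FPKM in sham libraries 1 to 3, without overlap (log2 change -0.28, adjusted p 0.145 by limma).

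Cyclic AMP, the ligand of the channels, is made by adenylyl cyclases under the control of G proteins and broken down by phosphodiesterases. Of 14 tested genes (16 listed) for cyclases and their G proteins none passed. The smallest adjusted p there was that of Gnai1, an inhibitory G protein subunit, at 28.3 ± 2.01 FPKM after crush and 37.2 ± 5.19 FPKM after sham surgery (SD, n = 3 each; log2 change -0.37, adjusted p 0.150 by limma). Without sham 2, Gnai1 and the cyclase gene Adcy1 passed.

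Of 15 tested phosphodiesterase genes (16 listed), 2 rose, none fell and 13 did not pass, with a median log2 change of 0.01. Without sham 2, 5 passed: Pde1a, Pde7a, Pde1c and Pde4b were higher after crush, and Pde4d was lower. Pde1a, a calcium-activated phosphodiesterase of cyclic AMP and cyclic GMP, had 4.930, 4.956 and 6.581 FPKM in crush libraries 1 to 3, against 1.572, 1.440 and 1.723 FPKM in sham libraries 1 to 3. It was 3.48 times as high after crush, the groups were far apart, and the log2 change was 1.32 (SE 0.116, adjusted p 0.00623 by limma). Pde1a passed whichever library was left out. Pde7a, a phosphodiesterase specific for cyclic AMP, had 5.110, 5.254 and 5.124 FPKM in crush libraries 1 to 3, against 3.876, 3.774 and 3.817 FPKM in sham libraries 1 to 3. Its log2 change was 0.35 (SE 0.063, adjusted p 0.0334 by limma), and among fits with a library left out it passed only without sham 2. Of the exon bases of Pde7a, 8.2% lie over an unnamed locus on the other strand.

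Of 11 tested genes (13 listed) for effectors of cyclic AMP other than the channels, none passed. Prkar2b, a regulatory subunit of protein kinase A, had the smallest adjusted p, at 80.5 ± 3.89 FPKM after crush and 98.3 ± 4.67 FPKM after sham surgery (SD, n = 3 each; log2 change -0.29, adjusted p 0.0911 by limma). Without sham 2, Prkar2b and the kinase subunit gene Prkacb passed.

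The cyclic nucleotide-gated and EAG potassium channels are the nearest relatives of HCN channels and carry a cyclic nucleotide-binding domain or a homologue of it. Of 7 tested (14 listed), all EAG-family genes, 1 fell and 6 did not pass, with a median log2 change of -0.17. No cyclic nucleotide-gated channel gene was tested. The only one with values, Cngb1, was below the filter, at 0.124 FPKM after crush and 0.0389 FPKM after sham surgery. Kcnh4, another EAG-family gene, was below the filter and not tested, at 0.574 ± 0.0967 FPKM after crush and 0.125 ± 0.0310 FPKM after sham surgery (SD, n = 3 each), without overlap. It passed upwards when no filter was used, and it was chosen for description after its values were seen. Kcnh2, which encodes the ERG potassium channel, had 26.45, 23.62 and 27.66 FPKM in crush libraries 1 to 3, against 35.76, 35.28 and 38.13 FPKM in sham libraries 1 to 3. The groups did not overlap, and the log2 change was -0.48 (SE 0.078, adjusted p 0.0268 by limma), next to -0.67 for Hcn2. Among fits with a library left out, Kcnh2 passed only without sham 2.

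The last list held 18 genes for potassium, calcium and sodium channels, listed as opposing or partner conductances of Ih. Of 16 tested, 1 fell and 15 did not pass, with 13 log2 changes below 0 and 3 above and a median of -0.20. When only isoforms with a reference identifier were used, 6 of these genes were tested and their median was 0.09. Without sham 2, 4 of the 16 passed, all lower after crush: Kcnk1, Kcnj3, Kcnq5 and the sodium channel gene Scn8a. Kcnk1, which encodes the leak potassium channel TWIK1, had 23.55, 19.70 and 24.52 FPKM in crush libraries 1 to 3, against 39.73, 37.15 and 41.05 FPKM in sham libraries 1 to 3. The groups did not overlap, and the log2 change was -0.78 (SE 0.095, adjusted p 0.0123 by limma), a size close to that of Hcn2. Kcnk1 did not pass without sham 1, without sham 3 or without crush 1.

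**Figure D4:**
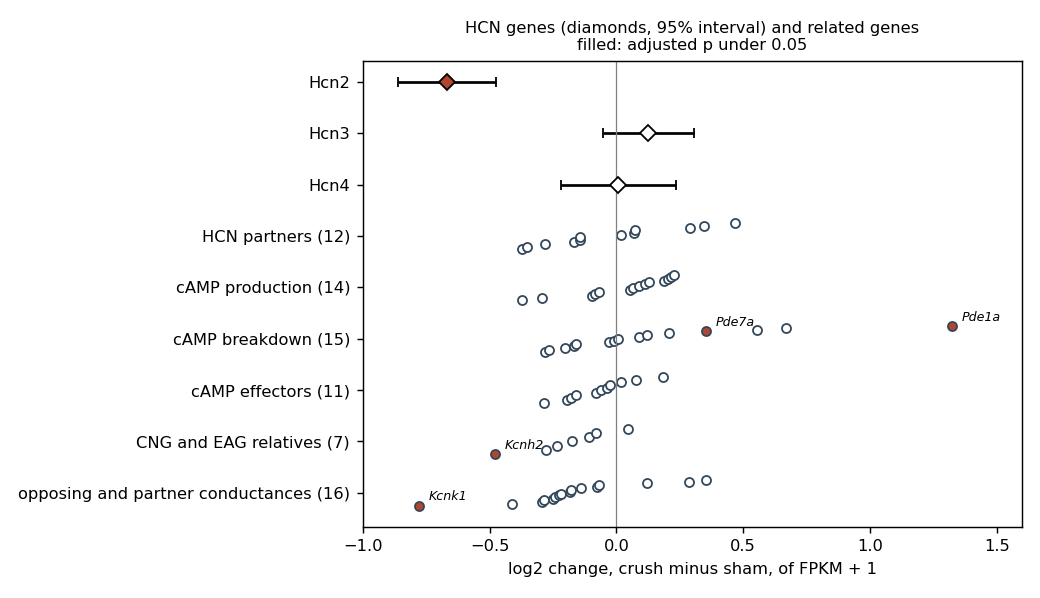
Log2 change of FPKM + 1, crush minus sham (horizontal axis), of the 3 HCN genes (diamonds with 95% intervals) and of the tested genes of 6 lists (circles, number tested in brackets); filled symbols had an adjusted p under 0.05 by limma. Hcn2 at -0.67 lies left of 0 with its interval, Hcn3 and Hcn4 have intervals that include 0, and Pde1a, Pde7a, Kcnh2 and Kcnk1 are the filled genes of the lists.

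The genes whose values followed each channel most closely over the 6 libraries were ranked by Pearson's r of log2(FPKM + 1) among 12133 named genes, as a description, since 6 points that fall into the same groups share much by design. For Hcn2 the closest were Dnm1, the dynamin of synaptic vesicle recycling (r = 0.998), AK078316 (r = 0.997) and Nfe2l1, a transcription factor gene (r = 0.995). Dnm1 had 183.1, 183.6 and 191.3 FPKM in crush libraries 1 to 3, against 235.5, 242.7 and 226.3 FPKM in sham libraries 1 to 3, lower in crush like Hcn2 and without overlap. As with Hcn2, much of Dnm1 (55.0% of its exon bases) lies over a gene on the other strand, Golga2. An r above 0.9 with Hcn2 was found for 550 genes, or 4.53%.

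For Hcn3 the closest were D11Wsu99e (r = 0.981), Rundc3b (r = 0.981) and the zinc finger gene Zfp248 (r = 0.966), and 30 genes (0.247%) had an r above 0.9. Of the exon bases of D11Wsu99e, 76.3% lie over Cog1 on the other strand. For Hcn4 they were Errfi1, an inhibitor of the epidermal growth factor receptor (r = 0.991), Acadsb, an acyl-CoA dehydrogenase gene (r = 0.977), and Zfp84 (r = 0.975), and 198 genes (1.63%) had an r above 0.9. Errfi1 had 7.461, 6.966 and 6.410 FPKM in crush libraries 1 to 3, against 6.956, 6.470 and 7.285 FPKM in sham libraries 1 to 3, the same order of libraries within each group as for Hcn4. None of these 9 genes passed the test between the groups.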

How the data were processed

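Poly-A selected RNA (500 ng per library) was sequenced from 3 crush and 3 sham libraries, barcoded, mixed and run on 3 lanes, per the labels' protocols; strand, read length and sequencing depth are not given in the sources used here. FPKM per isoform and library, with an interval and a status, were deposited by the authors, made with TopHat 1.3.2, Cufflinks 1.1.0 and Cuffdiff 1.2.1 on mm9, per the submitters' processing notes. Not used were 4 columns with the intervals of the pooled group estimates. The same deposited table holds the authors' log2 fold change, p-value and q-value per isoform. The authors' exon file was used for positions and lengths; sequences and their coding positions came from GENCODE M21 (GRCm38), and no coordinates of that build were used. Of 8 further transcripts of the members in the exon file (1 of Hcn2, 2 of Hcn3 and 5 of Hcn4), none has values, and they were not used here.

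FPKM was summed over isoforms sharing a gene name. Features averaging 1 FPKM or more across the 6 libraries were tested, genes and isoforms apart, as log2(FPKM + 1), which understates changes of low genes, with limma 3.58.1 in R 4.3.3 (mean-variance trend, 2-sided, Benjamini-Hochberg threshold 0.05; diffSplice F test for isoform differences). Single family values had an exact permutation test. FPKM keeps no read counts, so no counting interval was computed. Genes at 1 FPKM or more numbered 12087 to 12347 per library.

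On simulated data (12289 genes, 10 sets) limma recovered 84.2% of genes changed by 1 on the log2 scale and 97.7% of those changed by 2. False calls were 4.09%. The noise was drawn for each gene apart, without a deviation shared across a library such as that of sham 2. Changes smaller than 1, such as the -0.67 of Hcn2, were not simulated. These rates may therefore not hold for the libraries here. For isoform differences over 6746 genes, 80% were recovered at a log2 change of 2 with 23.1% false calls when each isoform had its own spread, and 74.5% with 8.59% when isoforms of a gene shared one, so diffSplice calls were too many in both.

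The members and gene lists were chosen with earlier results of these data known. Named are the members, their isoforms, the list genes that passed (up to 3 per direction) or else the one of smallest adjusted p, the 3 genes of most like pattern per member, and the most abundant marker of each cell type. Also named are Cngb1 and the nociceptor markers that passed, chosen after their values were seen. Genes named as passing under an alternative were chosen in the same way. The alternatives tried were another pseudocount, other filters, scalings and isoform sets, sample weights, a replicate block and leaving out each library. Other steps used matplotlib 3.10.9, scipy 1.17.1, numpy 2.4.6 and pandas 2.3.3 in Python 3.11.15.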

Additional observations from a re-analysis of the deposited data

How the results depend on the processing

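Hcn2 was lower after crush in all 15 alternatives, with log2 changes from -0.72 to -0.62 and adjusted p by limma from 0.00108 to 0.0883. For most of them that direction was fixed in advance. The Hcn2 groups did not overlap, so another pseudocount, sample weights or leaving out a library could not turn the sign. The filters, the OK status and the replicate block left the log2 change at -0.67. Hcn2 lost its call with the replicate block (adjusted p 0.0883 by limma) and without sham 1, crush 1 or crush 2. Over the libraries left out its log2 change was -0.719 to -0.623. Hcn3 kept its direction and did not pass in any alternative, at 0.09 to 0.17. Hcn4 turned to -0.012 with quantile normalization and -0.052 with reference identifiers only, and ran from -0.054 to 0.072 over the libraries left out. The difference in Hcn2 share of the summed FPKM, -10.5 percentage points, ranged from -12.0 to -9.04. The low isoforms had no stable sign: over the libraries left out, Hcn2_j1 ran from -0.40 to 0.68, Hcn2_j2 from -0.24 to 1.297 and Hcn4_j1 from -0.029 to 0.15. Without sham 2 the signs of Hcn2_j2 (-0.243) and Hcn4_j1 (-0.014) turned. Hcn4_j1 was at -0.04 with sample weights.

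Counts over all features moved far more. The 464 genes passing (293 higher, 171 lower) became 295 (165 and 130) with a filter of 5 FPKM, 67 (52 and 15) with reference identifiers only, 1429 (734 and 695) with sample weights and 50 (45 and 5) with the replicate block. With 1 library left out they numbered 53 to 1174, with the most, 1174 (607 and 567), once sham 2 was out and the fewest once crush 1 was out; leaving out sham 3, crush 2, crush 3 and sham 1 gave 75, 82, 99 and 119. The 15 isoforms passing became 7 without a filter, 30 with upper-quartile scaling, 38 with quantile normalization, 44 with reference identifiers only, 34 with an OK status in every library, 1355 with sample weights, 0 with the replicate block and 0 to 45 with a library left out. The 35 genes with isoform differences became 122 without a filter, 6 with a filter of 5 FPKM, 5 with reference identifiers only, 714 with sample weights, 7 with the replicate block and 11 to 86 with a library left out. Sample weights were 0.162 for sham 2 and 2.86 for crush 1. The cause of these shifts was not tested.

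In the lists, the channel partners passing (0) became 1 with a filter of 5 FPKM, 2 with upper-quartile scaling, 4 with quantile normalization, 5 with sample weights and 0 to 4 with a library left out. Cyclases and effectors (0 each) became 2 each with sample weights and 0 to 2 each with a library left out. Phosphodiesterases (2) became 0 with a filter of 5 FPKM, which both genes miss by their level, 1 with reference identifiers only, 4 with sample weights, 1 with the replicate block and 1 to 5 with a library left out. EAG relatives (1) became 2 without a filter, where Kcnh4 passed upwards beside Kcnh2, 0 with reference identifiers only, 0 with the replicate block and 0 to 1 with a library left out. Opposing and partner conductances (1) became 0 with reference identifiers only, 5 with sample weights and 0 with the replicate block. With a library left out they numbered 0 to 4. Same-numbered libraries had correlations of deviations of 0.372, -0.309 and -0.486, and other-numbered libraries ran from -0.529 to 0.59. Deviations were taken from the mean of each small group, so these values cannot decide whether replicate numbers pair the samples. The block is given as a check. FPKM keeps no depth, so what depth limits could not be measured.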
